A study of Drosophila melanogaster with 6 samples.

Results

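The Runx transcription factors and their beta partners were followed in progenitor cells of the adult fly midgut after knockdown of the linker histone H1. The family has 6 members, found by FlyBase symbol: the 4 DNA-binding alpha factors lz, run, RunxA and RunxB, and the 2 beta partners Bro and Bgb. All 6 have a row among the 17807 genes of the table. The family was selected on the TPM of lz, which was near 0 in the knockdown and not in control. That difference is therefore given as a description with no test, and the other members, which share the contrast, are treated in the same way.

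Runx proteins are transcription factors that bind DNA through the conserved Runt domain. A beta subunit does not bind DNA itself but joins the Runt domain and strengthens its hold on DNA. Runx factors activate or repress genes depending on their partners, and the corepressor Groucho binds their C-terminal end. In Drosophila, lz (lozenge) is known for patterning cells of the eye and for the formation of crystal cells, the blood cells that carry prophenoloxidases. The gene run (runt) is a pair-rule gene of the embryo that also takes part in sex determination. Bro (Brother) and Bgb (Big brother) encode the fly homologues of the beta subunit.

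RNA was sequenced from GFP-positive cells sorted from midguts, with pools of 70 guts and at most 100000 cells per replicate. The labelled cells are the ISC (intestinal stem cells) and the enteroblasts (EB) they give rise to, both marked by a temperature-sensitive esg driver with UAS-GFP (esgts, UAS-GFP). There were 3 control libraries with this genotype alone and 3 H1 RNAi libraries that carried a single RNAi construct in addition (UAS H1 RNAi 1), each lettered A, B and C. All 6 were labelled as 4 days of induction at 29 °C, whereas the growth protocol describes flies 3 days old, raised at 18 °C and moved to 29 °C for 1 day to express a different transgene. Nothing in the labels says that a control RNAi was used or that replicates came from separate crosses, so errors and p-values describe the spread among these 6 libraries, part of which may be technical.

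Levels are in TPM, which divides reads by gene length and sets every library to the same total, so the depth behind each value is unknown. The number of genes at 1 TPM or more was 7767 to 8316 per library. The knockdown could not be checked, since all 23 His1 copies were listed at 0 in all 6 libraries, in RNA selected as mRNA. Of 10 listed progenitor markers, 9 were matched to a row and each was above 1 TPM. They summed to 2099 to 2448 TPM in control and 2200 to 2372 TPM in H1 RNAi. Most of these sums came from E(spl)mbeta-HLH (means of 964 and 926 TPM) and Sox100B (670 and 645 TPM). Another marker, mira, had means of 108 and 167 TPM without overlap of the groups (limma, adjusted p = 0.118). Such a separation was found for 30.8% of the genes tested below. The stem cell ligand gene Delta (Dl) was low, at 8.76, 2.1 and 1.66 TPM in controls A, B and C and at 6.85, 8.64 and 4.56 TPM in H1 RNAi A, B and C. The symbol esg matched no identifier of the table in the name table used, and esg was not analysed here. In these bulk samples, fewer cells of a type and less RNA per cell cannot be told apart.

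Among the DNA-binding members, lz was the one expressed in the control libraries, and it was almost absent from the H1 RNAi libraries. Which of the sorted cells carried the lz transcript was not tested. The lz gene (FBgn0002576, chromosome X, 9284649 to 9303636, plus strand, in BDGP6.54) has 2 annotated transcripts and 3468 exonic bases. It was at 3.69, 3.42 and 3.82 TPM in controls A, B and C. It was listed at 0, 0.01 and 0.05 TPM in H1 RNAi A, B and C, where 0.01 TPM is the smallest step of the deposited values. The groups lay far apart, with the lowest control value 68.4 times the highest H1 RNAi value. The control mean was 3.64 ± 0.204 TPM and the H1 RNAi mean 0.02 ± 0.0265 TPM (SD, n = 3 per group), so that the knockdown mean was 0.549% of the control mean. On the log2(TPM + 1) scale the difference was -2.19 ± 0.17 (limma SE), a scale on which the changes of genes near or below 1 TPM come out too small. It was -4.98 with a pseudocount of 0.1 TPM and -0.78 with 5 TPM.

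The lz level was even across control libraries. Its coefficient of variation there was 5.6%, against a median of 26.5% for the 1137 tested genes with a control mean between 2 and 6 TPM. Of those genes, 4.05% varied as little or less. The window surrounds the control level of lz, and lz was chosen for its values, so nothing is read from this place. The level was modest, with 61.8% of all genes in the table below lz in control and 31.5% below it in H1 RNAi.

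Near-complete loss of a transcript was rare in these libraries. For the counts across genes, the 8124 genes that reached 1 TPM in 3 or more libraries were tested. The gene lz passed this filter only through its control libraries. It was the only tested gene at 1 TPM or more in every control library and under 0.1 TPM in every H1 RNAi library, limits that were set after its values were seen. The reverse pattern, under 0.1 TPM in every control and at 1 TPM or more in every H1 RNAi library, was found for 12 genes. Of the 7530 tested genes at 1 TPM or more in every control library, twz had the next lowest remainder after lz, at 1.9% of its control mean. The gene twz was uneven in control, with 1.01, 9.29 and 1.81 TPM, and was at 0.13, 0.08 and 0.02 TPM in H1 RNAi. On the log2(TPM + 1) scale 8 tested genes had a lower difference than lz. Lower values without overlap of the groups were found for 6.45% of all tested genes, and since lz was chosen for its values nothing is read from its place among them.

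**Figure D1:**
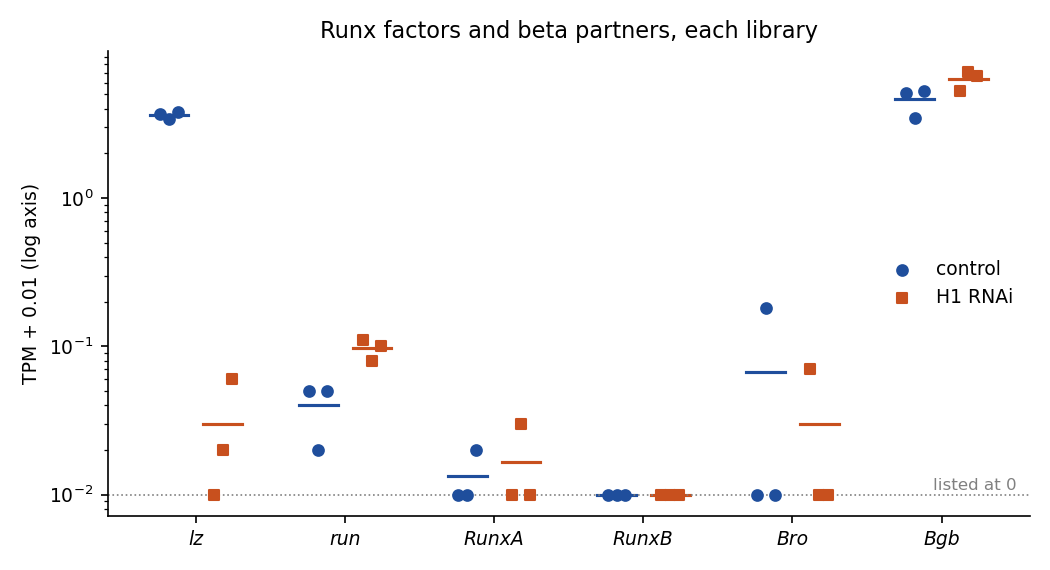
TPM + 0.01 (log axis) of the 6 Runx family members in each control library (circles) and each H1 RNAi library (squares), with group means as short lines and the dotted line at genes listed at 0. The lz values lie at 3.42 to 3.82 TPM in control and at 0 to 0.05 TPM in H1 RNAi, while Bgb lies between 3.48 and 7.09 TPM in all 6 libraries and the other 4 members stay at 0.17 TPM or less.

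**Figure D2:**
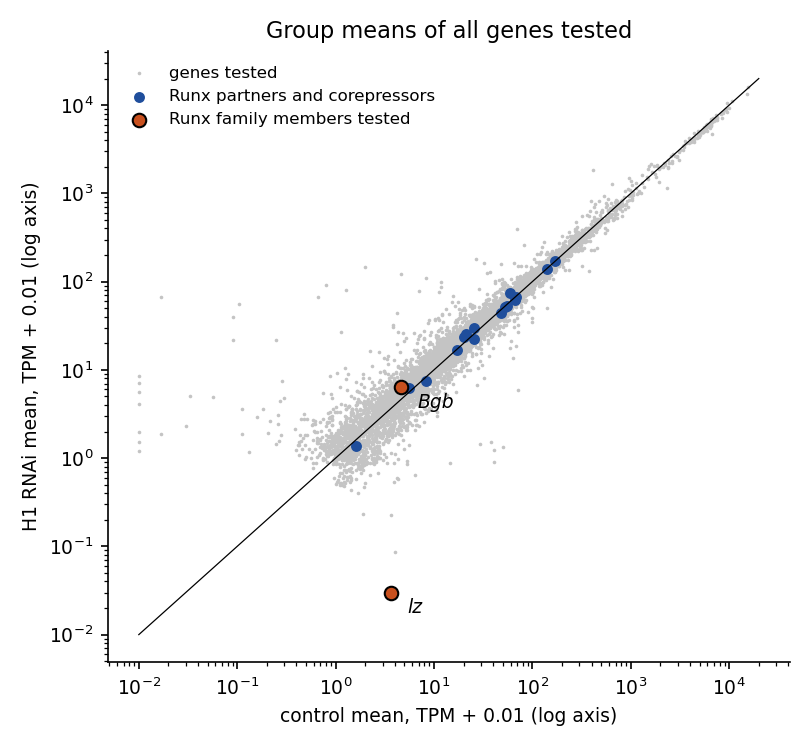
Mean TPM + 0.01 in H1 RNAi against control for the 8124 genes tested (grey, both axes log), with the Runx partners and corepressors (blue) and the 2 family members that were tested (orange). The point for lz lies apart below the diagonal (control 3.64 TPM, H1 RNAi 0.02 TPM), and Bgb and the partners lie along the diagonal.

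The other alpha factors were near or at 0 in both groups. The gene run (FBgn0003300, chromosome X, 20690670 to 20697321) was at 0.04, 0.01 and 0.04 TPM in controls A, B and C. It was at 0.1, 0.07 and 0.09 TPM in H1 RNAi A, B and C. The H1 RNAi values of run were thus the higher ones without overlap, a pattern shown in either direction by 22.5% of the 13713 genes above 0 in at least 1 library. All values of run were at 0.1 TPM or less, and the reads behind them are unknown. RunxA (FBgn0083981, chromosome X, 20590252 to 20623773) was listed at 0.01 TPM in control C and 0.02 TPM in H1 RNAi B, and at 0 in the other libraries. RunxB (FBgn0259162, chromosome X, 20538497 to 20567097) was listed at 0 in all 6. Of the 6 members, lz and Bgb passed the filter on low values.

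Summed over the 4 alpha factors, the level was 3.73, 3.43 and 3.87 TPM in controls A, B and C, of which lz made up 98.7% to 99.7%. The same sum was 0.10, 0.10 and 0.14 TPM in H1 RNAi A, B and C. No alpha factor was thus listed above 0.1 TPM in any H1 RNAi library.

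Of the beta partners, Bgb was expressed in both groups and Bro was nearly absent. Bgb (FBgn0013753, chromosome 3L, 1639711 to 1640952), a gene without introns, was at 5.09, 3.48 and 5.29 TPM in controls A, B and C. It was at 5.23, 7.09 and 6.67 TPM in H1 RNAi A, B and C. The groups overlapped, since H1 RNAi A lay below control C, and the 2 highest values were H1 RNAi B and C. The means were 4.62 ± 0.992 and 6.33 ± 0.975 TPM (SD, n = 3 per group), a log2 difference of 0.39 ± 0.20 (limma SE) where the median of all tested genes was 0.14. With TMM scaling (trimmed mean of M values) the Bgb difference was 0.29 and the median 0.02, and with quantile normalization they were 0.23 and -0.01. Without control B, the library with the lowest value, the Bgb difference was 0.24. Bro (FBgn0013755, chromosome 3L, 1647869 to 1648612), also without introns, was listed at 0.17 TPM in control B, at 0.06 TPM in H1 RNAi A and at 0 in the other 4 libraries.

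TPM is corrected for length, so levels can be set side by side between members. In control the order was Bgb, lz, Bro, run, RunxA and RunxB by mean. Bgb lay above lz in each control library, in control B at 3.48 against 3.42 TPM. Their ranges, 3.48 to 5.29 and 3.42 to 3.82 TPM, overlapped. Bro and run, with means of 0.0567 and 0.03 TPM, did not differ beyond their spread. In H1 RNAi Bgb stood alone above 1 TPM, and run followed at 0.0867 ± 0.0153 TPM (SD, n = 3). The ratio of summed alpha to summed beta transcripts went from 0.732 to 0.94 in control to 0.0141 to 0.021 in H1 RNAi.

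Transcripts of proteins that work with Runx factors were followed as well. Of 18 listed partners and corepressors, 16 were tested, and 0 rose and 0 fell (limma, adjusted p under 0.05; 0 at an unadjusted p under 0.05), where 2.83% of all tested genes were called, 2.28% as higher and 0.554% as lower. At these shares 0 calls among 16 genes is not read as a result. An unadjusted p under 0.05 was reached by 23.8% of all tested genes, the share against which such counts below are to be read. The log2 fold changes of the 16 ran from -0.18 to 0.30 with a median of -0.03, against 0.14 for all tested genes. The corepressor gene gro, which encodes Groucho, had a control level of 67.7 ± 2.21 TPM and an H1 RNAi level of 67.0 ± 7.25 TPM (SD, n = 3 per group, as for the other pairs of means that follow). CtBP, a second corepressor, was at 141 ± 8.8 and 140 ± 4.12 TPM, and the histone deacetylase gene HDAC1 at 59.8 ± 10.1 and 73.4 ± 5.39 TPM (adjusted p = 0.262, log2 fold change 0.30). Stat92E, the transcription factor of the JAK/STAT pathway, was at 168 ± 13.5 and 171 ± 18.6 TPM. The partners opa and so were under 1 TPM in all libraries and were not tested.

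GATA factors, of which Serpent (srp) acts with Lz in crystal cells, were at similar levels in both groups. Of 6 listed, 4 were tested and 0 were called in either direction (0 at an unadjusted p under 0.05, limma). As 2.83% of all tested genes were called, 0 calls among 4 genes is not read as a result. The gut factor gene GATAe was at 157 ± 20.9 and 164 ± 11.8 TPM, and GATAd at 62.6 ± 10.7 and 64.9 ± 6.56 TPM. The control values of srp were 3.25, 0.65 and 0.87 TPM (A, B, C), and its H1 RNAi values 1.2, 2.04 and 0.84 TPM. The srp groups overlapped, with control A the highest. Its cofactor gene ush, a Friend-of-GATA protein, differed by 0.11 on the log2 scale (adjusted p = 0.863). The remaining factors pnr and grn stayed at 1.01 TPM or less and 0.09 TPM or less.

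Crystal cell genes and targets of Lz known from other tissues were described next. Of 7 crystal cell and prophenoloxidase genes other than lz, 5 were tested and 0 were called (limma; 0 at an unadjusted p under 0.05). Since 2.83% of all tested genes were called, 0 calls among 5 genes is not read as a result. The 5 spanned log2 fold changes of -0.11 to 0.40. The zinc finger gene peb (hindsight), a marker of crystal cells that is also active in midgut progenitors, was at 183, 93.5 and 177 TPM in controls A, B and C and at 166, 168 and 161 TPM in H1 RNAi A, B and C. The peb groups overlapped, with control B the lowest. PPO2, a prophenoloxidase gene, was at 1.80, 1.34 and 0.71 TPM in controls A, B and C and at 3.87, 1.18 and 1.4 TPM in H1 RNAi A, B and C. PPO1, the other prophenoloxidase gene of crystal cells, was listed at 1.33 TPM in H1 RNAi A and at 0.02 TPM or less elsewhere. The highest PPO1 and PPO2 values were thus both in 1 library, H1 RNAi A. Whether they bear on lz, which was at 0.05 TPM or less in every H1 RNAi library, was not tested. PPO3, the prophenoloxidase gene of lamellocytes, named after its values were seen, failed the filter, with 0.39, 0.36 and 0.37 TPM in controls A, B and C and 1.48, 1.09 and 0.91 TPM in H1 RNAi A, B and C. Men, which encodes malic enzyme, and Naprt had log2 fold changes of 0.02 and 0.18.

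Of 10 eye targets of Lz, 3 were tested and 0 were called (1 at an unadjusted p under 0.05, limma). The other 7 were under 1 TPM in all libraries. With 2.83% of all tested genes called, 0 calls among 3 genes is not read as a result. The zinc finger gene klu was at 71.9 ± 21.8 and 65.7 ± 15.3 TPM, and aos, a secreted EGFR inhibitor, had a log2 fold change of 0.07. The third was pros, a homeodomain gene of enteroendocrine cells that Lz regulates in the eye, with 2.39, 2.46 and 3 TPM in controls A, B and C and 1.17, 1.01 and 1.36 TPM in H1 RNAi A, B and C (adjusted p = 0.0787, log2 fold change -0.73). The pros values of the groups did not overlap, as was the case for 30.8% of tested genes. With ordinary moderation 1 of the 3 was called. Of 12 embryonic targets of Runt, 4 were tested and 0 were called (limma; 0 at an unadjusted p under 0.05). Beside the 2.83% of all tested genes that were called, this 0 is not read as a result either. The log2 fold changes were -0.08 for Sxl, the sex determination gene, -0.12 for odd, 0.51 for dpn and 0.74 for the pair-rule gene hry (hairy). The hry groups overlapped, with 20.52, 46.46 and 29.81 TPM in controls A, B and C and 37.02, 65.48 and 56.68 TPM in H1 RNAi A, B and C (adjusted p = 0.22).

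**Figure D3:**
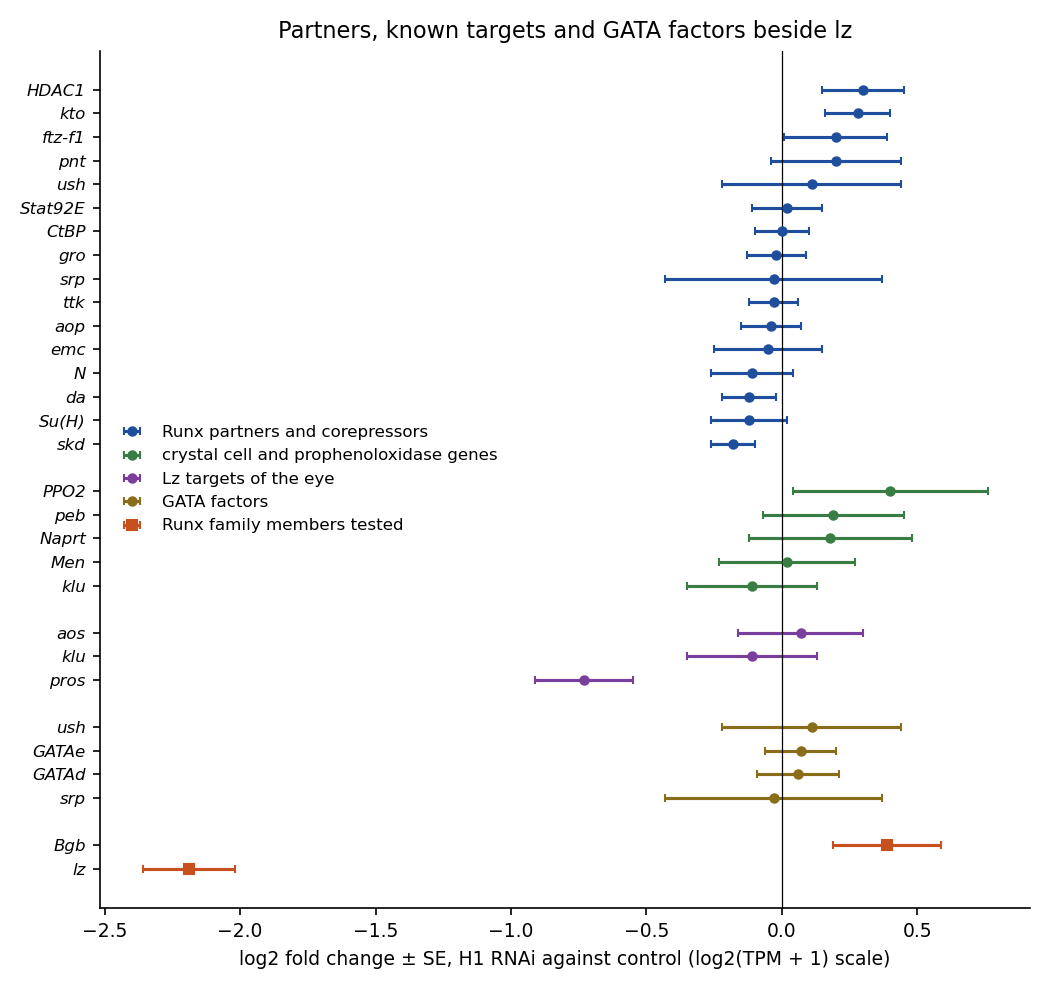
Log2 fold change ± SE (limma, log2(TPM + 1) scale, 3 H1 RNAi against 3 control libraries) of the tested partners, crystal cell genes, eye targets and GATA factors, with lz and Bgb as squares. The listed genes lie between -0.73 (pros) and 0.40 (PPO2), and lz lies at -2.19.

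Among 26 other lineage transcription factors, 20 were tested, 0 rose and 2 fell (limma), where 2.28% of all tested genes were called higher and 0.554% lower. Both, mirr and tap, are regulators of enteroendocrine cells. The control values of mirr were 4.79, 4.6 and 6.29 TPM and its H1 RNAi values 2.17, 1.81 and 2.3 TPM (adjusted p = 0.0418). The control values of tap were 8.8, 9.09 and 8.5 TPM and its H1 RNAi values 4.33, 2.29 and 4.1 TPM (adjusted p = 0.0463). In control, lz lay below mirr and above the proneural gene sc, which was at 2.09 to 2.54 TPM in control and 2.19 to 2.57 TPM in H1 RNAi. Dropping any single library ended the call of tap, with adjusted p up to 0.145, as did no filter (0.0837) and a pseudocount of 0.1 TPM (0.0552). Dropping any but control B ended that of mirr (up to 0.183), as did no filter (0.0698), quantile normalization (0.0555) and TMM scaling (0.0516). The most abundant factors of this list, E(spl)mbeta-HLH, Sox100B, Sox21a and E(spl)m3-HLH, had log2 fold changes of -0.06, -0.05, 0.17 and -0.13.

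Markers of other cells were read beside lz. Of 11 hemocyte markers 7 were under 1 TPM in all libraries, among them Hml, NimC1, eater and He, which define plasmatocytes or blood cells in general, and 0 of 4 tested were called (0 at an unadjusted p under 0.05, limma). Their summed level, 200 to 248 TPM in control and 187 to 206 TPM in H1 RNAi, came mostly from the scavenger receptor gene crq, with group means of 211 and 187 TPM. Enteroendocrine markers went both ways. Of 12 such markers, all tested, NPF, Tk, 7B2 and IA-2 fell and 0 rose (limma), where 0.554% of all tested genes were called lower. An unadjusted p under 0.05 was reached by 8 of the 12 (limma). The number that fell was 1 when any library but control B was dropped, with TMM scaling or with no filter, 2 with quantile normalization, and 5 without control B. The 12 summed to 2465 to 3300 TPM in control and 1104 to 1643 TPM in H1 RNAi, and most of this sum was the peptide hormone gene NPF, with group means of 2309 and 1139 TPM. Of the markers not called, amon and pros had lower values without overlap of the groups. Their log2 fold changes were -1.18 and -0.73 (limma, adjusted p = 0.056 and 0.0787). Higher values without overlap were found for 2 other hormone genes, Mip with a log2 fold change of 1.20 and CCHa2 with 1.09 (adjusted p = 0.104 for each). Groups without overlap were found for 30.8% of all tested genes. The groups overlapped for AstC, Dh31, CCHa1 and AstA, with log2 fold changes of -0.62, -0.10, 0.02 and 0.03. Whether the enteroendocrine markers bear on lz was not tested.

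Genes called higher were on the tracheal and germline marker lists, where 2.28% of all tested genes were called higher. Of 6 tracheal markers 2 were tested and 1 rose (limma), dysf, which encodes a bHLH-PAS factor of tracheal fusion cells. It was at 0, 0 and 0.02 TPM in controls A, B and C and at 55.95, 78.36 and 67.31 TPM in H1 RNAi A, B and C (adjusted p = 1.7e-05). The FGF receptor gene btl, the other tested tracheal marker, had a log2 fold change of -0.13, and trh, verm and Gasp, which mark tracheal cells and their cuticle, did not exceed 0.15 TPM in any library. The last tracheal marker, serp, was not tested. Its values were 1.24, 0.99 and 0.42 TPM in controls A, B and C and 0.64, 0.32 and 0.32 TPM in H1 RNAi A, B and C, with overlap. The 6 summed to 10.9 to 21.1 TPM in control and 73.2 to 93.5 TPM in H1 RNAi. Of 7 ovary and germline markers 3 were tested and 2 rose (limma), the piRNA Argonaute genes aub and AGO3. The values of aub were 0.75, 2.28 and 0.72 TPM in controls A, B and C and 7.09, 15.97 and 8.14 TPM in H1 RNAi A, B and C (adjusted p = 0.032). Those of AGO3 were 0.21, 0.42 and 0.19 TPM and 6.08, 11.08 and 5.49 TPM (adjusted p = 0.00677). The third, piwi, had a log2 fold change of 0.18, and vas, nanos and osk, genes of germ cells and the oocyte, did not exceed 0.41 TPM. The remaining marker, bam, failed the filter. It was at 0.4, 5 and 0.36 TPM in controls A, B and C and at 0.61, 0.49 and 0.95 TPM in H1 RNAi A, B and C. The 7 summed to 1.53 to 10.2 TPM in control and 15 to 29.2 TPM in H1 RNAi. The call of aub ended with no filter (adjusted p = 0.0633) and when any library but control B was dropped (up to 0.121). Whether these lists bear on lz was not tested.

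Enterocyte markers summed to 388 to 1284 TPM in control and 623 to 1549 TPM in H1 RNAi with 0 of 10 called (1 at an unadjusted p under 0.05, limma), and visceral muscle markers to 12.4 to 17.5 and 13.2 to 14.9 TPM with 0 of 2 tested called (0 at an unadjusted p under 0.05, limma).

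No tested gene around lz was called lower in H1 RNAi, where 0.554% of all tested genes were called lower and 2.28% higher. No annotated gene overlaps lz on either strand, so its reads are not shared with an antisense partner. The nearest gene before it, c11.1, ends 1532 bases from its start and was at 47.8, 85.1 and 43.1 TPM in controls A, B and C and at 58.9, 72.8 and 75.5 TPM in H1 RNAi A, B and C. Aladin, a nuclear pore protein gene 8996 bases before lz, was not called, with 5.07 ± 0.939 TPM in control, 8.32 ± 1.70 TPM in H1 RNAi and an adjusted p of 0.128. After lz, lncRNA:CR44534 was listed at 0 in all 6 libraries, as was snoRNA:CG16892-a on the other side, and c12.1 and c12.2 had log2 fold changes of 0.12 and 0.22. Within 50 kb on either side of lz, a distance chosen after the values were seen, 13 of 21 genes were tested, 1 rose and 0 fell (limma). At the shares of all tested genes, 0 lower calls among 13 genes is not read as a result. The log2 fold changes of the 13 ranged from -0.39 to 0.65 with a median of 0.22, against 0.14 for all tested genes. The gene that rose was ric8a, which had means of 10.4 ± 0.73 TPM in control and of 16.4 ± 0.599 TPM in H1 RNAi (adjusted p = 0.035). Dropping any library but control B ended this call (adjusted p up to 0.17), as did quantile normalization (0.141), TMM scaling (0.0937) and no filter (0.0654).

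**Figure D4:**
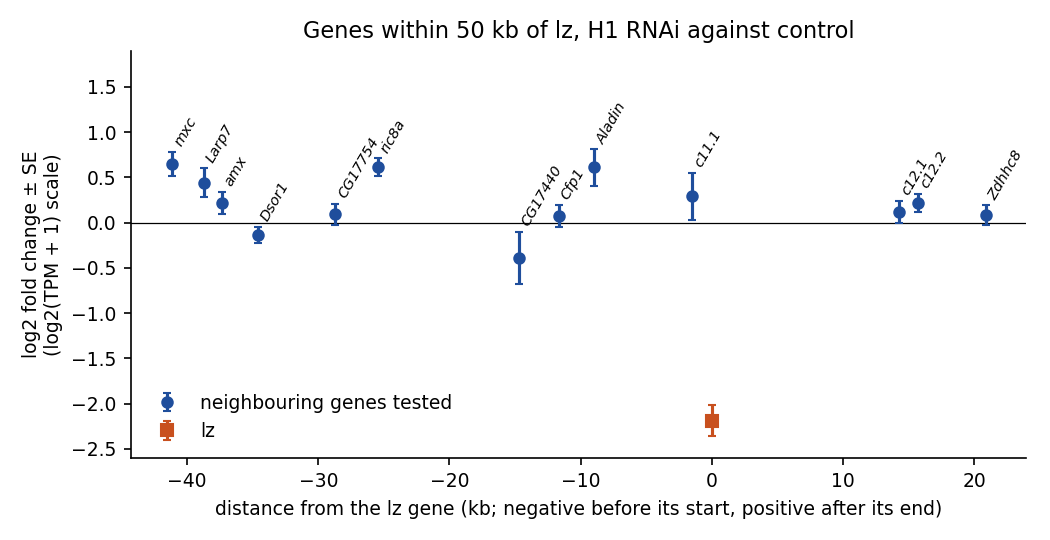
Log2 fold change ± SE (limma, log2(TPM + 1) scale) of the 13 tested genes within 50 kb of lz against their distance from the gene in kb, with lz at 0. The neighbours lie between -0.39 and 0.65 and lz at -2.19.

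The run, RunxA and RunxB genes lie in a cluster elsewhere on the X chromosome, with RunxB 23155 bases from RunxA and RunxA 66897 bases from run. The genes bordering that cluster, CG42579 and CG1324, were listed at 0 in all 6 libraries. Between its members Cyp6v1, a cytochrome P450 gene, was at 12.7 ± 1.12 and 13.9 ± 0.916 TPM (adjusted p = 0.542, limma). Bgb and Bro are neighbours 6917 bases apart on 3L, and the 3 genes between them, alphaCOP, CG13919 and CG17249, had log2 fold changes of 0.10, 0.39 and 0.18 with no call. On the outer sides, Mettl2 had a log2 fold change of 0.24 and asRNA:CR45815, 16 bases beyond Bro on the other strand, one of -0.71 (adjusted p = 0.529). The values of asRNA:CR45815 were widely spread, from 3.65 to 25.2 TPM over the 6 libraries.

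The genes with the pattern most like that of lz over the 6 libraries were CG11700, CG17570, ncm, IA-2, Sytbeta, CG12934, Cys and nebu. Likeness was Pearson's r of log2(TPM + 1) over 6 libraries, among 224 genes with at least 5 TPM in a group mean and a group difference of at least 1 on the log2 scale, and r was 0.971 to 0.992. Since these genes were picked for a difference between the same groups, the r values are descriptions. The closest, CG11700, was at 10.1, 10.2 and 10.7 TPM in controls A, B and C and at 3.74, 4.19 and 3.44 TPM in H1 RNAi A, B and C, which left 36.7% of its control mean. The splicing factor gene ncm kept 36.9%, and IA-2, a dense-core vesicle protein gene, 35.1%. The smallest remainder among the 8 was that of CG12934, at 8.19%, against 0.549% for lz.

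By level and pattern together (the smallest Euclidean distance on the same scale among the other 8123 tested genes), the nearest gene was stl, which encodes an ADAMTS-family metalloprotease. It was at 2.12, 5.36 and 3.35 TPM in controls A, B and C and at 0.14, 0.25 and 0.26 TPM in H1 RNAi A, B and C. Next came CG32053, with group means of 4.24 and 0.583 TPM in control and H1 RNAi. The other 6, CG13375, phr6-4, CG32444, CG18808, ODA-Dnal1 and VhaM9.7-a, held 11.7% to 34.2% of their control mean in H1 RNAi.

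**Figure D5:**
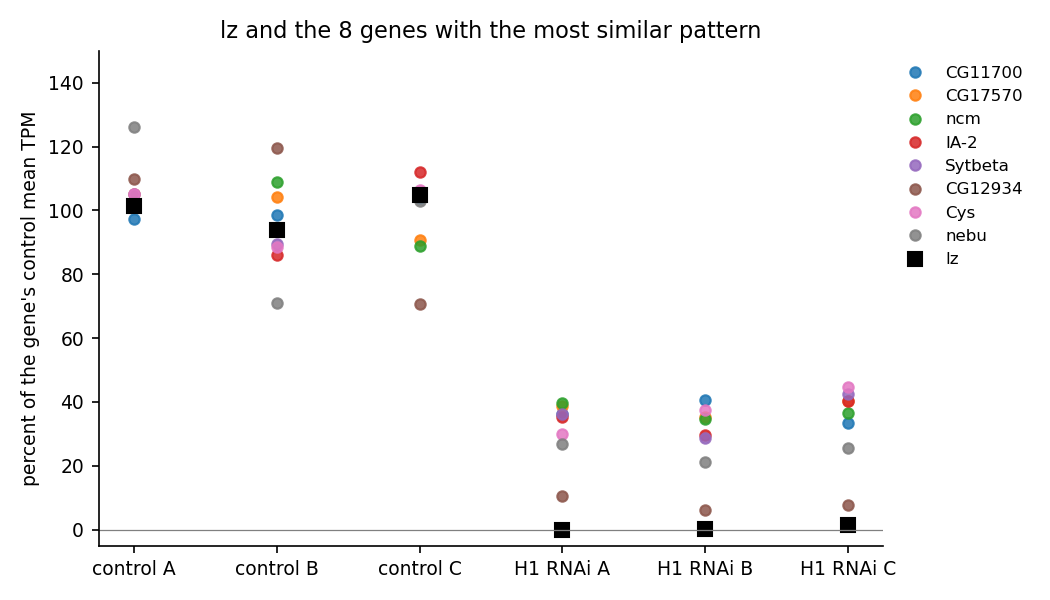
TPM of lz (black squares) and of the 8 genes with the highest Pearson's r to it (coloured points) in each library, as percent of the gene's own control mean. In H1 RNAi the 8 genes hold 8.19% to 38.1% of their control mean on average, and lz holds 0.549%.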

How the data were processed

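The authors deposited TPM values per gene, rounded to 2 decimals, with 1 column for each of the 6 libraries. Per the submitters' processing notes, bcl2fastq and the dm6 genome build were used. For the aligner, the counter and the gene models nothing is given in the sources used here, nor whether counting was by strand. Per the labels' protocols, the library kit was stranded and selected mRNA. TPM keeps no depth, so counting error cannot be given. Of 17807 identifiers, 17710 had a symbol in the name table. Coordinates follow the Ensembl 115 annotation of BDGP6.54, 1-based, which shares dm6 coordinates.

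The fit used limma 3.58.1 (R 4.3.3) on log2(TPM + 1) for the 8124 genes that reached 1 TPM in 3 or more libraries, with trend and robust moderation. Benjamini-Hochberg adjustment ran over all 8124, with a threshold of 0.05. The procedure was checked on simulated data. Other steps used Python 3.11.15, pandas 2.3.3, numpy 2.4.6 and matplotlib 3.10.9.

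The members and gene lists were chosen with earlier results of these data known. Named genes were the 6 members, called genes and otherwise the 4 most abundant of each list (lists of up to 6 in full; of marker lists mainly the called genes), bordering genes, and 8 genes each by correlation and by distance to lz. Listed names were matched to the symbols of the name table, in which Dl is Delta, hdc is heca, nos is nanos, h is hry and Pdm2 is pdm2. The symbol esg is paired there with an identifier that is not in the table used, a gap of the name match, and esg was not analysed here. Alternatives were pseudocounts of 0.1 and 5 TPM, no filter, TMM scaling, quantile normalization, ordinary moderation, a block for the replicate letter, and dropping single libraries.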

Additional observations from a re-analysis of the deposited data

How the results depend on the processing

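Of 8124 tested genes, 230 were called (185 higher, 45 lower). With no filter 90 were called (75 higher, 15 lower), with TMM scaling 136 (88 higher), with quantile normalization 146 (83 higher), and with the replicate letter as a block 142 (107 higher). Leaving out single libraries gave 29 to 450 calls (24 to 389 higher, 5 to 61 lower), the most without control B. The share of calls that were higher went from 80.4% to 64.7% with TMM scaling, 56.8% with quantile normalization and 73.6% with ordinary moderation. Since lz was chosen for its fall, the sign of its difference under the alternatives was given beforehand and nothing is read from it. Its log2 difference was -4.98 with a pseudocount of 0.1, -0.78 with 5 and -2.25 with quantile normalization. It was -2.22 to -2.16 on leaving out single libraries. The log2 difference of run was 0.08, and 0.53 and 0.02 with pseudocounts of 0.1 and 5. With a pseudocount of 0.1 RunxA had 0.04 and Bro -0.25, and Bro ran from -0.09 to 0.03 on leaving out single libraries. Bgb ranged from 0.23 to 0.50 over all alternatives. Of the eye targets 1 was called with ordinary moderation. Of the other lineage factors, 2 in the main comparison, 1 was called with a pseudocount of 0.1, with TMM scaling and with quantile normalization, 0 with no filter, 0 with the block and 0 to 1 on leaving out single libraries. The lists of partners, crystal cell genes, Runt targets and GATA factors had 0 calls under each alternative.

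Deviations from the group means correlated at 0.4 (A), 0.136 (B) and 0.0931 (C) between same-lettered libraries of the groups. Between different letters the correlations ran from -0.284 (control A with H1 RNAi C) to 0.169 (control B with H1 RNAi C). These values do not settle whether the letters are pairs, and the main fit did not pair them. With the letter as a block, adjusted p was 0.0582 for mirr, 0.0662 for tap and 0.0598 for ric8a, and 5 enteroendocrine markers fell. The cause of these changes was not tested. The reads behind values of 0 to 0.17 TPM are unknown, so differences among run, RunxA, RunxB and Bro cannot be resolved.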
